A study of Mus musculus with 2 samples.

Results

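Cbln4, Nrg2, Gpr37l1, Pla2g2f, Slfn9 and Vwf encode a synaptic organiser, a growth factor, a receptor, a lipase, a Schlafen protein and a blood adhesion protein. These 6 genes, of 28692 in the count table, were chosen by symbol from genes whose level was already known to be lower in cisplatin-treated than in vehicle-treated small cell lung cancer of the mouse. Their difference between the libraries is therefore a description here and is not tested. All 6 were detected in both libraries.

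The tumour type arises from neuroendocrine cells of the airway and keeps many neuronal and endocrine transcripts. The genes described here are best known from other tissues: Cbln4 from brain synapses, Nrg2 from neurons, Gpr37l1 from astrocytes and other glia, Pla2g2f from the upper epidermis and Vwf from blood vessels and platelets. Slfn9 belongs to the Schlafen family, several members of which are induced by interferon and act on RNA or on DNA replication in immune and other cells.

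The cisplatin library came from lung tumours of mice given 5 mg per kg of cisplatin, a DNA-crosslinking drug, every 4 days over 2 weeks. The vehicle library came from mice given saline on the same schedule. The mice of both libraries, of mixed strain, carried floxed Rbf/f, P53f/f and Ptenf/f alleles, a CGRPCreER/+ recombinase and the Rosa26mTmG reporter, and dissociated live cells were sorted for GFP, which the reporter makes after Cre recombination. The recombinase is driven from the CGRP (Calca) locus and acts when tamoxifen is given, so the sorted cells descend from cells that expressed it. The library protocol names etoposide beside cisplatin, so whether etoposide was also given is unclear, and the ages and the number of animals per library are not given in the sources used here. With 1 library per group, no difference between treatments has a replicate check or a p-value, and treatment, animal and library cannot be told apart.

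The cisplatin library held 28777462 unique molecular identifiers (UMIs) in 4254 barcodes, and the vehicle library 32519922 in 3726. Values below refer to the sorted cells, 4056 of 4218 kept barcodes in cisplatin and 3642 of 3672 in vehicle, after barcodes and clusters with markers of immune, club or other cell types were set aside. Their median depth was 5855 UMIs in cisplatin and 8207 in vehicle. All 10 neuroendocrine markers were detected in both, with summed levels of 8224 CPM (counts scaled to 1e+06 in all) in cisplatin and 6322 CPM in vehicle. Among markers of other cell types, club markers summed to 484 CPM in cisplatin and 176 CPM in vehicle (3 of 3 detected in each) and alveolar type 2 markers to 163 and 25.7 CPM (4 of 4), while neutrophil markers were at 1.71 and 22.6 CPM (4 of 4) and erythroid markers at 0.595 and 50.1 CPM (3 of 3). Their part in the differences below was not tested. A level is the UMIs of a gene summed over cells as a part of all UMIs of the same cells, in CPM, and intervals are exact 95% intervals that cover counting error only. A gene was called lower or higher when its CPM differed at least 1.5-fold and it had at least 50 UMIs over both libraries.

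All 6 genes were lower in cisplatin than in vehicle. Of 13309 genes with 50 UMIs or more, 2800 (21%) were called lower in cisplatin and 1000 (7.51%) higher, and all 6 members passed the floor. At a 2-fold limit, 873 genes (6.56%) and again all 6 members were lower. The median log2 ratio of cisplatin over vehicle, with 1 CPM added, was -1.81 over the members and -0.16 over all measured genes. Since the members were chosen on this contrast, nothing is read from their count. Ranked from the lowest ratio of all measured genes, Slfn9 was at place 23, Cbln4 27, Nrg2 34, Pla2g2f 35, Gpr37l1 39 and Vwf 141.

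**Figure D1:**
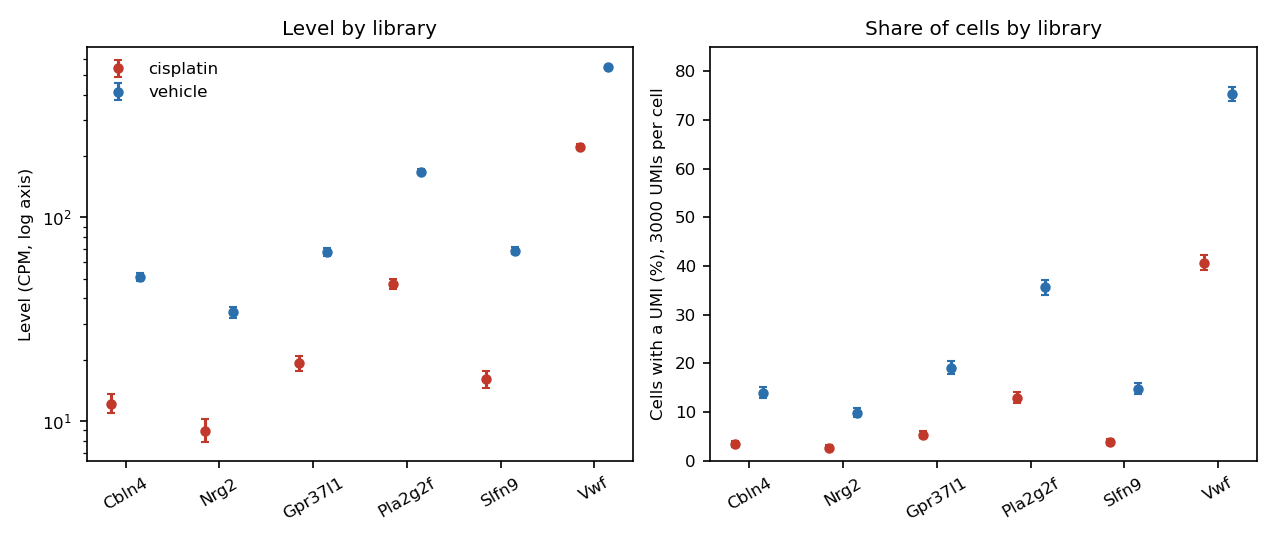
Left, level of each gene in CPM on a log axis in the sorted cells of the cisplatin (red) and vehicle (blue) library. Right, share of cells with a UMI after thinning each cell to 3000 UMIs; bars are exact 95% intervals for counting error. Each red point lies below its blue point, with Vwf at 40.7% of cisplatin and 75.4% of vehicle cells.

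The secreted ligands come first. Cbln4 encodes a secreted protein of the C1q family that binds presynaptic neurexins (GRCm38 chr2:172036233-172043466, minus strand). It was at 12.2 CPM (10.9 to 13.6; 328 UMIs) in cisplatin and 50.9 CPM (48.4 to 53.4; 1627 UMIs) in vehicle, a log2 ratio of -1.98. After thinning each cell to 3000 UMIs, 3.41% of 3700 cisplatin cells and 14.0% of 3499 vehicle cells held a Cbln4 UMI. Unthinned, the shares were 6.58% and 29.7%. Most positive cells held 1 UMI, 80.9% of them in cisplatin and 66.8% in vehicle, and the highest cells held 7 and 6 UMIs.

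Nrg2 encodes an epidermal growth factor-like ligand of the ErbB3 and ErbB4 receptors (GRCm38 chr18:36017652-36197380, minus strand). Its level was 8.99 CPM (7.89 to 10.2; 242 UMIs) in cisplatin and 34.2 CPM (32.2 to 36.3; 1093 UMIs) in vehicle, a log2 ratio of -1.82. A thinned cell held an Nrg2 UMI in 2.68% of cisplatin and 9.89% of vehicle cells, or in 5.50% and 23.9% without thinning. No cisplatin cell held more than 2 Nrg2 UMIs, while the highest vehicle cell held 6. An antisense transcript, 4930471G03Rik, overlaps Nrg2 in the annotation and has no row of its own in the count table.

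Vwf encodes von Willebrand factor, the large multimeric glycoprotein that tethers platelets and carries factor VIII (GRCm38 chr6:125546774-125686679, plus strand). It was at 222 CPM (216 to 227; 5968 UMIs) in cisplatin and 545 CPM (537 to 553; 17429 UMIs) in vehicle, a log2 ratio of -1.29. Of thinned cells, 40.7% in cisplatin and 75.4% in vehicle held a Vwf UMI, and 57.3% and 92.9% without thinning. Among positive thinned cells the mean was 1.74 UMIs in cisplatin and 2.29 in vehicle. Without thinning, where the vehicle cells are deeper, it was 2.57 and 5.15, and the highest cells held 20 and 32. For Vwf, both the share of positive cells and the mean UMIs per positive cell were lower in cisplatin.

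Gpr37l1 encodes a G protein-coupled receptor of glia, for which the secreted protein prosaposin has been proposed as a ligand (GRCm38 chr1:135160234-135167681, minus strand). It was at 19.2 CPM (17.63 to 20.98; 518 UMIs) in cisplatin and 67.6 CPM (64.7 to 70.5; 2161 UMIs) in vehicle, a log2 ratio of -1.76. The thinned share was 5.32% in cisplatin and 19.1% in vehicle, and the unthinned share 10.4% and 39.0%. The highest cells held 4 Gpr37l1 UMIs in cisplatin and 6 in vehicle.

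Pla2g2f encodes a secreted phospholipase A2, an enzyme that releases fatty acids from phospholipids and is known from the upper layers of mouse skin (GRCm38 chr4:138750533-138757626, minus strand). It was at 47.1 CPM (44.6 to 49.8; 1268 UMIs) in cisplatin and 168 CPM (163 to 172; 5360 UMIs) in vehicle, a log2 ratio of -1.81. A Pla2g2f UMI was found in 12.9% of thinned cisplatin cells and 35.6% of thinned vehicle cells, or in 23.6% and 60.1% of unthinned cells. Positive thinned cells averaged 1.15 UMIs in cisplatin and 1.44 in vehicle. Unthinned ones averaged 1.32 and 2.45, with maxima of 6 and 15. As with Vwf, fewer cisplatin cells were positive and positive cells held fewer UMIs on average. Thinned positive cells of 3 other members also had lower means in cisplatin: Slfn9 (1.11 against 1.30), Gpr37l1 (1.09 against 1.22) and Cbln4 (1.08 against 1.16). For Nrg2 the mean was 1.06 in both libraries.

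Slfn9 encodes one of the long Schlafen proteins, which carry a helicase-like region (GRCm38 chr11:82978390-82991830, minus strand). It was at 16.0 CPM (14.5 to 17.6; 431 UMIs) in cisplatin and 68.5 CPM (65.7 to 71.5; 2192 UMIs) in vehicle, the lowest ratio of the 6 at -2.03 on the log2 scale. The thinned share was 3.84% in cisplatin and 14.8% in vehicle, against 8.48% and 29.6% unthinned. Its UMIs were the most unequally spread of the members in vehicle, where single cells held up to 34 and 21 UMIs, while no cisplatin cell held more than 4. The variance of thinned Slfn9 counts over their mean was 1.16 in cisplatin and 1.61 in vehicle.

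Every 60-base word in the last 500 bases of the longest coding transcript of each of the 6 genes was unique to that gene among annotated transcripts, so no near-identical copy was found to share their 3' tags. How the authors' counting treated strand and overlapping genes is not given in the sources used here.

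Free RNA in droplets can give UMIs in cells that do not express a gene, so the members were also read in the barcodes set aside. In 157 barcodes of clusters 5 and 11 in the cisplatin library (median 10600 UMIs), which were led by S100a9, Lyz2 and other immune genes or by club cell genes such as Scgb1a1, Cbln4 was found in 0.637%, Gpr37l1 in 2.55%, Nrg2 in 3.18% and Vwf in 28.0%, all below the unthinned shares of the sorted cells of that library, although the interval for Nrg2 reached 7.28%. Pla2g2f was found in 29.9% (22.9 to 37.8%) and Slfn9 in 8.28% (4.48 to 13.7%), at or near their shares in the sorted cells, whose median depth was lower (5855 UMIs). At unlike depth, these shares cannot tell detection of these 2 genes in single cisplatin cells from background. Per UMI, Pla2g2f was at 37.2 CPM and Slfn9 at 11.6 CPM in those barcodes, against 47.1 and 16.0 CPM in the sorted cells. Cluster 5 itself held 9 neuroendocrine markers at 100 CPM or more, so these barcodes are not free of tumour RNA. In the vehicle library, clusters 5 and 11 held 11 barcodes (median 6081 UMIs). Vwf was found in 63.6% of them (30.8 to 89.1%), Slfn9 in 45.5% (16.7 to 76.6%), Pla2g2f in 36.4%, Nrg2 in 27.3% and Cbln4 and Gpr37l1 in 18.2% each. For every member but Vwf the interval held the unthinned share of the sorted vehicle cells. With 11 barcodes the intervals were wide (10.9 to 69.2% for Pla2g2f), so for members other than Vwf the shares cannot tell detection in single vehicle cells from background. For Vwf the interval ended below the 92.9% of the sorted vehicle cells, which were deeper (median 8207 UMIs). Per UMI, every member but Slfn9 was lower in these barcodes than in the sorted vehicle cells, on 2 to 31 UMIs each. Pla2g2f was at 37.7 CPM against 168 CPM, and Slfn9 at 75.4 CPM against 68.5 CPM. In 19 vehicle barcodes with 3 or more markers of another type (median 9903 UMIs), Cbln4 was found in 26.3% (9.15 to 51.2%) and Vwf in 57.9% (33.5 to 79.7%). Per UMI, Vwf was at 348 CPM there, Pla2g2f at 69.6, Cbln4 at 32.5, Gpr37l1 at 23.2, Slfn9 at 13.9 and Nrg2 at 9.28 CPM. All were below their levels in the sorted vehicle cells, on 2 to 75 UMIs each. In 9 vehicle barcodes with T cell markers (median 3380 UMIs), Vwf was found in 4, Cbln4 in 2 and each other member in 1.

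Vwf is the textbook transcript of endothelial cells, and endothelial markers were near 0 in the sorted cells. The 11 endothelial markers summed to 15.2 CPM in cisplatin (10 of 11 detected, Tie1 at 0) and 11.2 CPM in vehicle (11 of 11 detected), both far below the level of Vwf itself. An endothelial marker was found in 2.39% of thinned cisplatin cells with Vwf and in 4.38% of those without it, and in 2.39% and 2.67% of vehicle cells. Among the sorted cells, those with Vwf thus held endothelial markers no more often than those without it. Barcodes with 3 or more markers of another type had been set aside before, which limits both the levels and the shares here. Egfl7, Plvap and Pecam1 gave 156, 139 and 71 of 409 endothelial marker UMIs in cisplatin, and 166, 80 and 64 of 357 in vehicle. The shares cannot tell whether Vwf was concentrated in endothelial cells. In the 6 barcodes with 3 or more endothelial markers, set aside from the sorted cells, Vwf was at 812 CPM. Markers of platelets and megakaryocytes summed to 7.28 CPM in cisplatin (3 of 5 detected, Ppbp and Gp1ba at 0) and 2.13 CPM in vehicle (3 of 5, Gp9 and Gp1ba at 0). The platelet receptor gene Gp1ba was thus at 0 in both libraries, where a count of 0 allows 3 UMIs per library.

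Glial and epidermal markers were read in the same way for Gpr37l1 and Pla2g2f. Glial markers summed to 77.6 CPM in cisplatin (6 of 6 detected) and 94.2 CPM in vehicle (5 of 6, Sox10 at 0), and were found in 18.3% of Gpr37l1-positive and 20.8% of Gpr37l1-negative cisplatin cells, and in 22.0% and 23.9% of vehicle cells. Keratinocyte markers summed to 130 CPM in cisplatin (3 of 5 detected, Krt5 and Krt14 at 0) and 65.7 CPM in vehicle (5 of 5). They were found in 32.6% of Pla2g2f-positive and 30.4% of Pla2g2f-negative cisplatin cells, and in 17.7% and 16.3% of vehicle cells. Neither gene was therefore concentrated in cells that held a marker of these lists. Mbp alone gave 1782 of 2089 glial marker UMIs in cisplatin and 2723 of 3012 in vehicle. Krt10 gave 2278 of 3509 keratinocyte marker UMIs in cisplatin and 1423 of 2101 in vehicle. The shares thus rest largely on Mbp and Krt10, and cannot tell whether either gene was concentrated in glia or keratinocytes.

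Cell cycle state was read in thinned cells from 10 replication genes (S, at least 3 UMIs) and 10 mitotic genes (mitotic, at least 2 UMIs), no member among them. In cisplatin 1065 cells (28.8%) were S, 1160 (31.4%) mitotic and 1475 (39.9%) neither, and in vehicle 1305 (37.3%), 871 (24.9%) and 1323 (37.8%). Cells that passed both cuts were taken as mitotic. Where a state is compared with other cells below, the other cells are those of neither state. These classes are ranges of a count and not types. In cisplatin 648 cells lay 1 UMI below the mitotic cut and 410 lay 1 UMI below the S cut, and in vehicle 660 and 442. State was not used to choose the members. The libraries differ in their shares of S and mitotic cells, though, so differences between states within a library are not independent of that choice. Cells of 1 library are not replicates and only intervals are given.

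Slfn9 differed between the states in both libraries. In cisplatin it was at 20.03 CPM (15.4 to 25.6) in S cells, 23.6 CPM (18.7 to 29.2) in mitotic cells and 2.49 CPM (1.24 to 4.45) in cells of neither state. In vehicle it was at 109 CPM (98.5 to 119), 64.3 CPM (54.9 to 74.8) and 20.4 CPM (16.2 to 25.4) in the same order. S cells thus held 8.06 times the level of cells of neither state in cisplatin (4.22 to 16.9) and 5.32 times in vehicle (4.19 to 6.83). For mitotic cells the ratio was 9.48 in cisplatin (5.03 to 19.7) and 3.15 in vehicle (2.40 to 4.16). Mitotic cells also held more replication gene UMIs than cells of neither state. Their mean was 3.42 against 0.965 in cisplatin and 2.51 against 1.06 in vehicle. The part of this in the mitotic ratio of Slfn9 was not tested. The share of cisplatin cells with a Slfn9 UMI was 5.82% in S cells and 0.678% in cells of neither state.

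**Figure D2:**
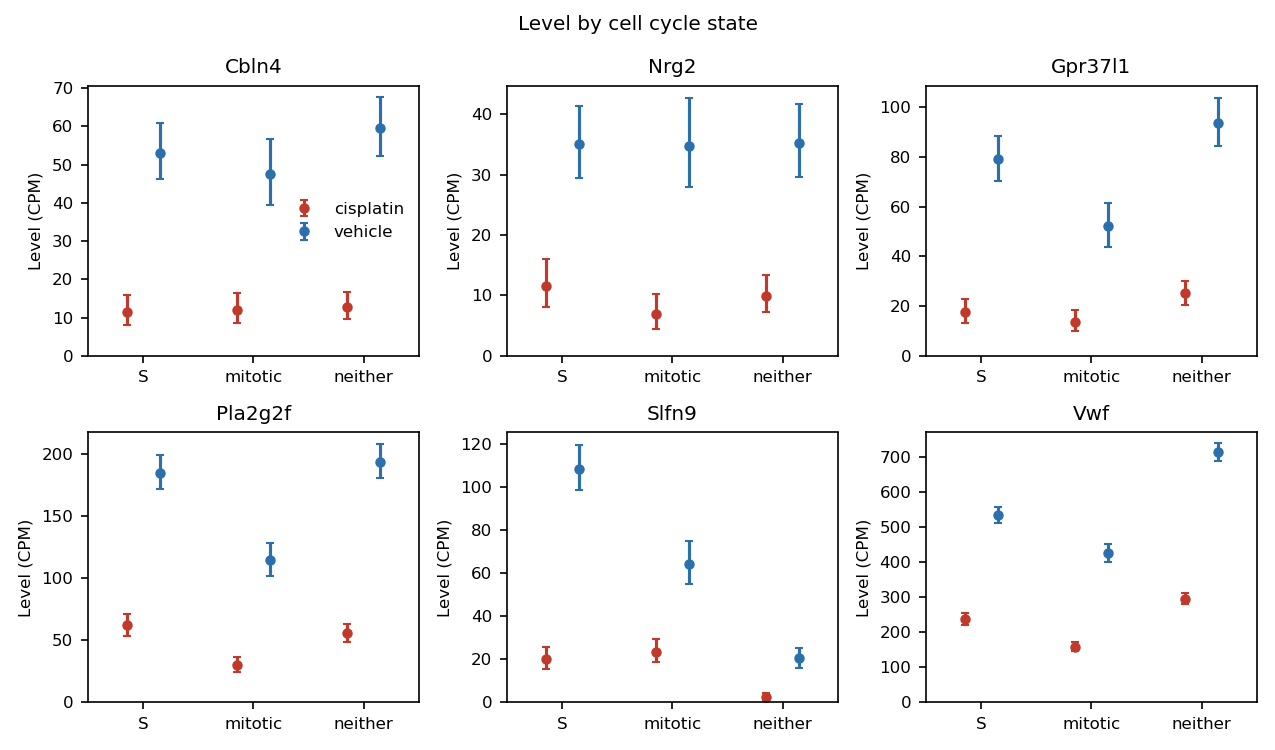
Level of each gene in CPM in S, mitotic and other cells of the cisplatin (red) and vehicle (blue) library, in cells thinned to 3000 UMIs; bars are exact 95% Poisson intervals. Slfn9 is lowest in cells of neither state, while Vwf, Gpr37l1 and Pla2g2f are lowest in mitotic cells of both libraries.

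Vwf, Gpr37l1 and Pla2g2f had their lowest level in mitotic cells of both libraries. Vwf was at 159 CPM in mitotic cisplatin cells and 296 CPM in those of neither state, a ratio of 0.537 (0.485 to 0.593). In vehicle it was at 426 and 713 CPM, a ratio of 0.598 (0.557 to 0.641). Gpr37l1 was at 13.8 and 25.1 CPM in the same states of cisplatin (0.550; 0.383 to 0.778) and at 52.0 and 93.7 CPM in vehicle (0.555; 0.453 to 0.678). Pla2g2f was at 30.2 and 55.6 CPM in cisplatin (0.543; 0.428 to 0.685) and at 115 and 194 CPM in vehicle (0.591; 0.516 to 0.676). These 3 ratios were close in both libraries although the levels differed.

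In S cells the 3 genes parted. Vwf was lower in S than in other cells, at 0.806 times in cisplatin (0.736 to 0.882) and 0.750 times in vehicle (0.708 to 0.794). Gpr37l1 was at 0.699 times (0.497 to 0.972) and 0.842 times (0.722 to 0.982). For Pla2g2f the interval held 1 in both libraries, with ratios of 1.12 (0.925 to 1.36) and 0.953 (0.860 to 1.06).

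For Cbln4 and Nrg2 a difference between states was hardly detectable at this depth. Cbln4 in mitotic over other cells was 0.937 in cisplatin (0.614 to 1.42) and 0.798 in vehicle (0.637 to 0.996), and in S over other cells 0.899 (0.578 to 1.38) and 0.894 (0.738 to 1.08). For Nrg2 the ratios in mitotic cells were 0.694 (0.403 to 1.17) and 0.987 (0.750 to 1.29), and in S cells 1.16 (0.731 to 1.85) and 0.992 (0.778 to 1.26). Of these 8 ratios, the interval left out 1 for Cbln4 in mitotic vehicle cells alone.

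Within each state all 6 genes remained lower in cisplatin. The ratio of cisplatin over vehicle in S, mitotic and other cells ran from 0.217 to 0.254 for Cbln4, 0.198 to 0.331 for Nrg2, 0.222 to 0.268 for Gpr37l1, 0.263 to 0.336 for Pla2g2f, 0.122 to 0.366 for Slfn9 and 0.373 to 0.446 for Vwf. Since the members were chosen for being lower over all cells, nothing is read from this direction. For Slfn9 the state-matched values were 0.185 (0.140 to 0.240) in S cells, 0.366 (0.278 to 0.480) in mitotic cells and 0.122 (0.0585 to 0.230) in cells of neither state. Over all cells the Slfn9 ratio was 0.234, and no other member departed as far from its ratio over all cells in any state.

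The cells of each library mostly formed their own clusters when both were clustered together without the members. Cisplatin cells made up most of cluster 0 (834 cells; Nusap1, Ube2c), cluster 2 (599 cells; Sfrp5, Hhex, Pnoc) and cluster 6 (1891 cells; Rprm, Osr1). Vehicle cells made up most of cluster 7 (2115 cells) and cluster 10 (483 cells; Aspm, Mki67). Clusters 1, 3 and 4 held over 100 cells of each library, 106, 385 and 109 in cisplatin and 243, 506 and 207 in vehicle. Pla2g2f, Gpr37l1, Vwf and Cbln4 were among the 10 leading genes of cluster 7. Since that cluster is nearly all vehicle cells, this restates the contrast on which the members were chosen.

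In the 3 shared clusters the members were lower in cisplatin with 1 exception. Over these clusters 2161 of 11152 measured genes (19.4%) were called lower and 475 (4.26%) higher, and since the members were chosen on this contrast nothing is read from their count. Vwf was at 112 CPM in cisplatin and 375 CPM in vehicle in cluster 1, at 206 and 354 CPM in cluster 3, and at 196 and 422 CPM in cluster 4, which was led by the stress genes Nupr1, Trib3 and Ddit3. Nrg2 had no UMI in 106 cisplatin cells of cluster 1 and 62 UMIs in 243 vehicle cells, and a count of 0 there allows 3 UMIs or 4.27 CPM, against 31.9 CPM in vehicle. The exception was Slfn9 in cluster 1, at 15.6 CPM in cisplatin and 13.9 CPM in vehicle, a ratio of 1.12 (0.503 to 2.34) on 11 and 27 UMIs. Over the 3 clusters together the log2 ratios were -1.42 for Cbln4, -1.86 for Nrg2, -1.98 for Gpr37l1, -1.72 for Pla2g2f, -1.66 for Slfn9 and -0.97 for Vwf. Cluster 6 held 27 vehicle cells beside its 1891 cisplatin cells. There Vwf was at 363 CPM in cisplatin and 299 CPM in vehicle, a ratio of 1.21 (0.894 to 1.70) on 3622 and 41 UMIs. The other members were lower in cisplatin in cluster 6, but for Nrg2, Pla2g2f and Slfn9 the interval held 1.

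**Figure D3:**
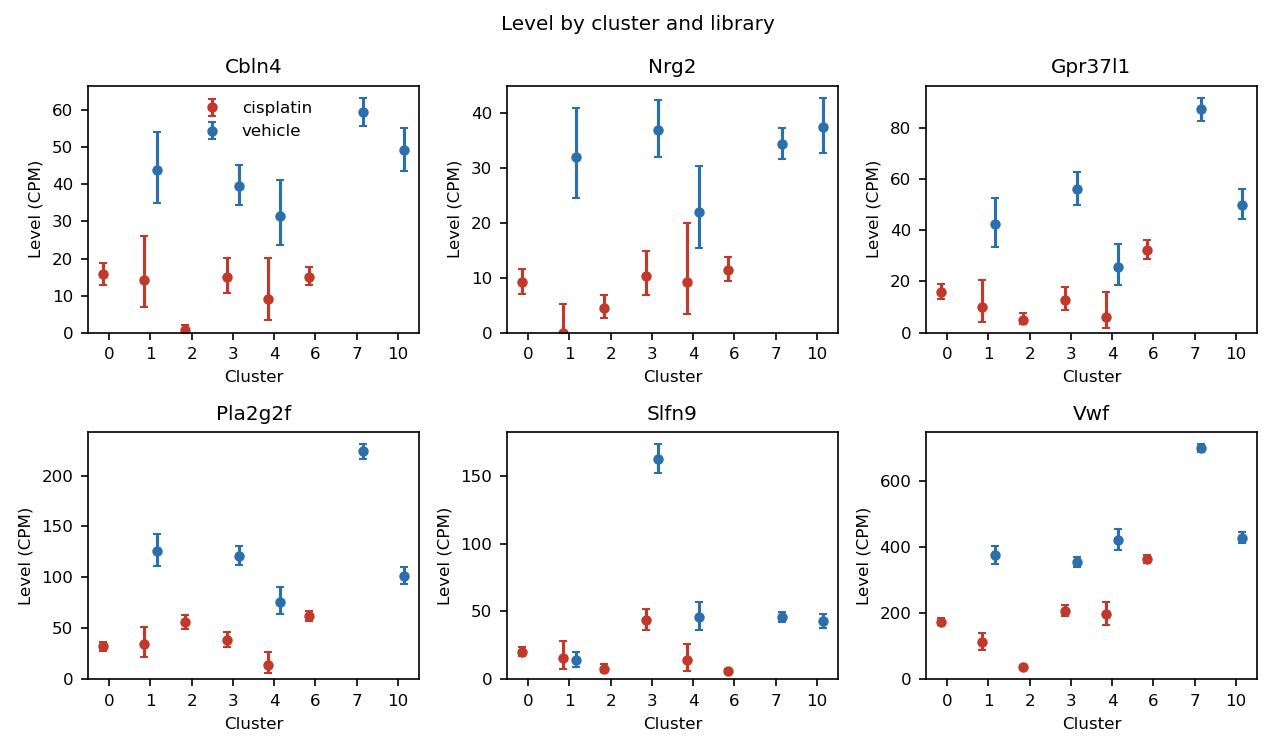
Level of each gene in CPM by cluster in the cisplatin (red) and vehicle (blue) library, for clusters with at least 100 cells of that library; bars are exact 95% Poisson intervals. Slfn9 stands highest in cluster 3 of vehicle at 163 CPM, and Cbln4 and Vwf lowest in cluster 2 of cisplatin at 0.666 and 37.5 CPM.

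Within cisplatin, cluster 2 stood apart. Cbln4 had 3 UMIs in its 599 cells, 0.666 CPM (0.137 to 1.95), against a highest level of 15.7 CPM in cluster 0. Vwf was at 37.5 CPM in cluster 2 and 363 CPM in cluster 6, and Gpr37l1 at 5.11 and 32.3 CPM. Nrg2 was at 4.44 and 11.4 CPM. Pla2g2f did not share the low level, at 55.7 CPM in cluster 2 and 61.9 CPM in cluster 6. Slfn9 was at 7.77 CPM (5.41 to 10.8) in cluster 2, below its 20.1 CPM in cluster 0 and 43.3 CPM in cluster 3, and was lowest in cluster 6 at 5.81 CPM. Without cluster 2 the log2 ratio of cisplatin over vehicle was -1.75 for Cbln4 and -1.08 for Vwf.

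Among clusters with at least 100 cells, Slfn9 was highest in cluster 3 of each library, in which 76.1% of cisplatin and 76.5% of vehicle cells were in the S state. Its level there was 43.3 CPM (36.0 to 51.7) in cisplatin and 163 CPM (152 to 174) in vehicle. Cluster 3 held 28.3% of all Slfn9 UMIs of cisplatin and 40.6% of those of vehicle. The mostly mitotic vehicle clusters differed in Slfn9. It was at 13.9 CPM in cluster 1 (78.7% mitotic), 42.8 CPM in cluster 10 (99.8%) and 670 CPM in cluster 9 (94.1%). In vehicle, cluster 9 had only 17 cells but 177 Slfn9 UMIs, 8.07% of that library's, and 7 of the 8 vehicle cells with 10 or more Slfn9 UMIs. Without cluster 9, a step chosen after its values were seen, the Slfn9 log2 ratio was -1.99.

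To ask which transcripts varied with each member from cell to cell, Pearson correlations of log-scaled counts were taken with 11729 genes in 4056 cisplatin and 3642 vehicle cells, and genes were ranked by the vehicle value. The cells share their library and differ in depth, so the values are descriptions. The 3 genes most alike to Slfn9 were Tcf19 (0.16 in cisplatin, 0.42 in vehicle), the replication clamp Pcna (0.21 and 0.41) and the chromatin remodeller Hells (0.21 and 0.39). Genes alike to Vwf included the homeobox gene Meis2 (0.22 and 0.23) and the IGF-binding protein gene Igfbp5 (0.25 and 0.22). Gpr37l1 with Tmem158 (0.09 and 0.16), Cbln4 with the endothelin gene Edn3 (0.07 and 0.14) and Nrg2 with Id2 (0.01 and 0.13) gave weak values from which nothing is read. The same holds for the other genes that the rule names, Tmem158 and Upp1 for Pla2g2f, Hhatl and Dapk2 for Gpr37l1, Zcchc12 and Arl4a for Cbln4, and Id3 and Mkrn1 for Nrg2, with 0.11 to 0.17 in vehicle.

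Cells were also grouped by the UMIs of the 10 replication genes after thinning, a step added after the correlations were seen. Slfn9 was at 2.94, 4.81, 17.5 and 40.2 CPM in cisplatin cells with 0, 1 to 2, 3 to 5 and 6 or more of them, and at 20.3, 23.2, 68.0 and 186 CPM in vehicle cells. It was thus higher with more replication transcripts in both libraries and lower in cisplatin in each range. Vwf was lower in the 2 upper ranges than in the 2 lower ones, at 256, 264, 212 and 196 CPM in cisplatin and 627, 637, 550 and 433 CPM in vehicle. Pla2g2f showed no such order, at 54.2, 45.8, 55.0 and 45.0 CPM in cisplatin and 157, 177, 184 and 150 CPM in vehicle. Whether these slopes differ between treatments was not tested, since there is 1 library of each.

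**Figure D4:**
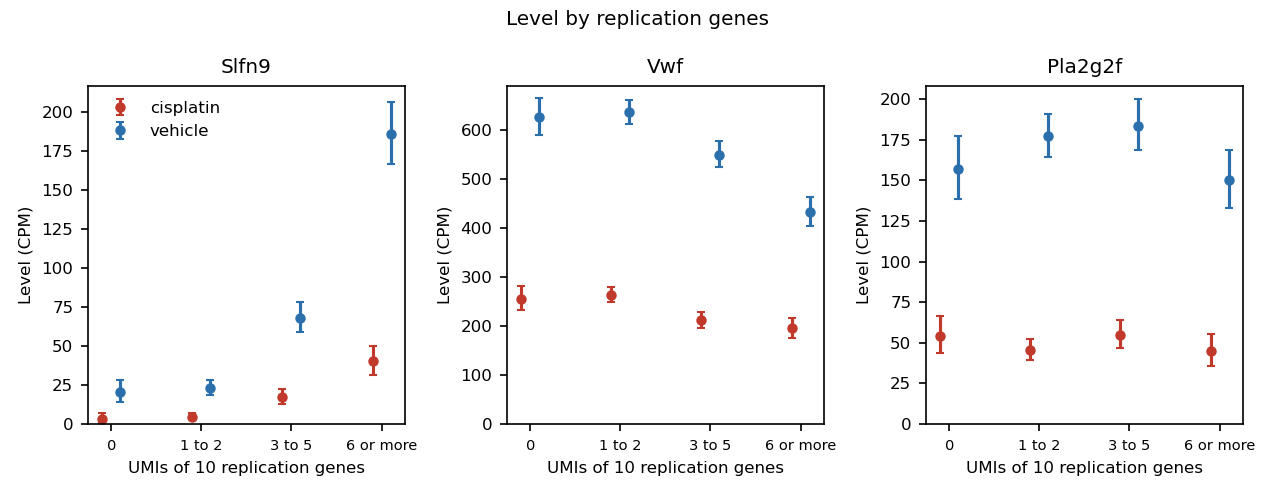
Level of Slfn9, Vwf and Pla2g2f in CPM by the number of UMIs of 10 replication genes in a cell, in cisplatin (red) and vehicle (blue) cells thinned to 3000 UMIs; bars are exact 95% Poisson intervals. Slfn9 reaches 40.2 CPM in cisplatin and 186 CPM in vehicle in the highest range.

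Co-detection of the members was close to what their separate shares give. For each of the 15 pairs, thinned cells with both genes were set against the product of the 2 shares. Summed over pairs, the observed number was 1.10 times the product in cisplatin (583 against 529) and 1.02 times in vehicle (3682 against 3615). The interval lay above 1 for 2 pairs in cisplatin, Gpr37l1 with Vwf at 1.36 (1.12 to 1.64) and Cbln4 with Vwf at 1.31 (1.01 to 1.66). In vehicle it lay above 1 for Nrg2 with Gpr37l1 at 1.30 (1.04 to 1.61) and Gpr37l1 with Pla2g2f at 1.14 (1.01 to 1.29).

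The interval lay below 1 for 1 pair. Gpr37l1 and Slfn9 shared 2 cisplatin cells against 7.56 from their shares, a ratio of 0.265 (0.0320 to 0.956), and the same pair was at 0.829 in vehicle with an interval that held 1. In unthinned cells this pair was at 0.684 in cisplatin (0.458 to 0.982), and Cbln4 with Slfn9 was at 0.892 in vehicle (0.796 to 0.997). Unthinned intervals lay above 1 for 3 pairs in cisplatin, among them Nrg2 with Gpr37l1 at 1.51 (1.08 to 2.06). In vehicle they did so for 2 pairs, among them Cbln4 with Gpr37l1 at 1.12 (1.03 to 1.23), while Nrg2 with Gpr37l1 was at 1.08 (0.979 to 1.20). In thinned cells, none of the 5 pairs named left 1 in both libraries, and the intervals are not adjusted for the 15 pairs. Within cluster 7, the largest of vehicle, the summed ratio was 1.01, and within cluster 6, the largest of cisplatin, 1.06.

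**Figure D5:**
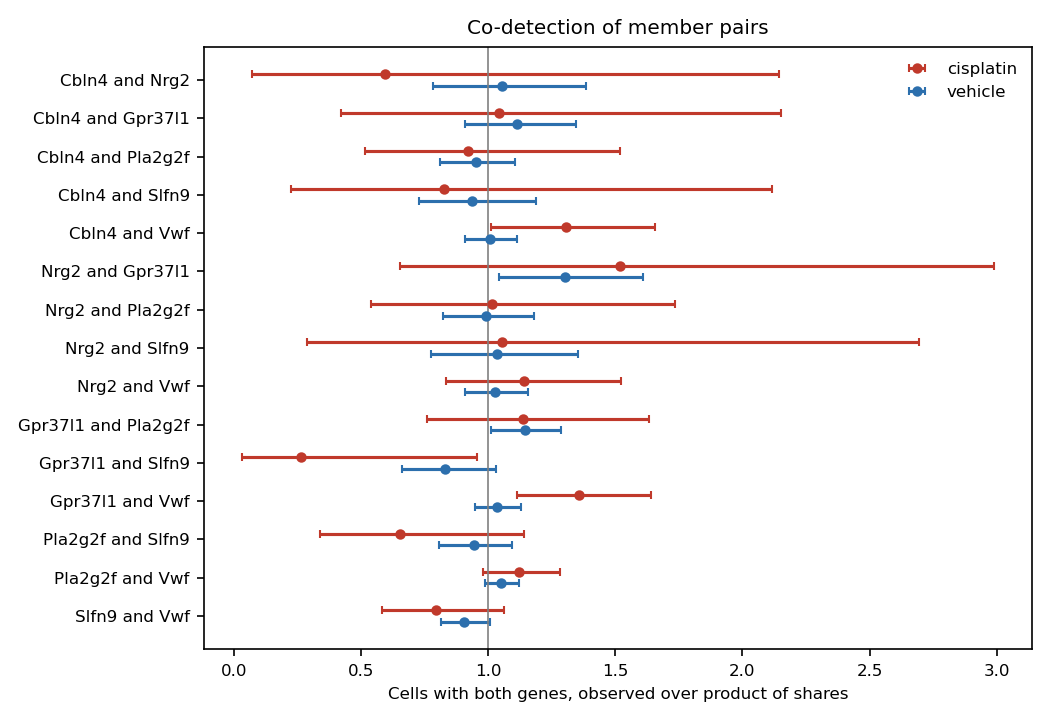
Thinned cells holding both genes of a pair over the number expected from the product of their shares, for the 15 pairs in cisplatin (red) and vehicle (blue); bars are exact 95% intervals and the grey line marks 1. The interval lies above 1 for 2 pairs in each library.

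Counted per thinned cell, no member was found in 45.3% of cisplatin and 9.32% of vehicle cells. Exactly 1 was found in 42.0% and 35.3%, and exactly 2 in 11.3% and 36.6%. Exactly 4 members were found in 2 cisplatin cells and 114 vehicle cells, while 5 were found in 11 and all 6 in 1 vehicle cell. Independent shares would give 44.2% of cisplatin and 8.46% of vehicle cells with no member.

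Promoter sequences were matched for 4 of the 6 genes, from RefSeq on GRCm38.p6, 250 bases before to 50 bases after the annotated start. They are shown because the members were lower together in cisplatin and because Slfn9 followed the replication genes. The letters searched on both strands were CAGCTG as well as CAGGTG (forms of the E-box), GGAATG (the TEAD element), TGANTCA (the AP-1 element), TGACGTCA (the cyclic AMP element), GGGCGG (the GC box) and TATAAA (the TATA box). Capitals mark a match, each sequence reads 5′ to 3′ on the minus strand, and positions count from 0 at the start.
Pla2g2f (chr4:138757549-138757848, minus strand): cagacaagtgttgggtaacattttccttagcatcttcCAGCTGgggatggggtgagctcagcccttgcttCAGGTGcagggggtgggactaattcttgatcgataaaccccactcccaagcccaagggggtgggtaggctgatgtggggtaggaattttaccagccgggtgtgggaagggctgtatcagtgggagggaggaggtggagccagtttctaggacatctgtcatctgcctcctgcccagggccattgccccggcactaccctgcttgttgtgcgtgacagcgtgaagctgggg
Gpr37l1 (chr1:135167632-135167931, minus strand): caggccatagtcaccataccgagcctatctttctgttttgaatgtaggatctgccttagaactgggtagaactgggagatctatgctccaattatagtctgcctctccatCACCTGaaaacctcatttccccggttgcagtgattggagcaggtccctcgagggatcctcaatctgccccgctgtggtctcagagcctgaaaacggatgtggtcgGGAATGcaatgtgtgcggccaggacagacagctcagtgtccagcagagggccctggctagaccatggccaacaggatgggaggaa
Slfn9 (chr11:82991781-82992080, minus strand): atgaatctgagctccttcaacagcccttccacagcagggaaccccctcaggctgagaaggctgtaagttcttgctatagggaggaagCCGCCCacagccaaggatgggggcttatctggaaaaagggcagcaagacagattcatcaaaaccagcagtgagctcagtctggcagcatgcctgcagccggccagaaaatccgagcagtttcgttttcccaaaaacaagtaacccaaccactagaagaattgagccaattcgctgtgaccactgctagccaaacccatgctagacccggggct

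The Pla2g2f window held CAGCTG at -213 and CAGGTG at -180. Gpr37l1 held CAGGTG at -140, read as CACCTG on this strand, and GGAATG at -35. Slfn9 held GGGCGG at -163, read as CCGCCC, and Cbln4, with 15 CpG, held 2 overlapping GGGCGG at -129 and -124. Among 32851 promoters, CAGCTG was found in 16.3%, CAGGTG in 20.2%, GGAATG in 14.7% and GGGCGG in 35.7%, while TGANTCA (7.81%), TGACGTCA (1.79%) and TATAAA (13.6%) were in none of the 4 windows. No motif was shared by all 4 windows, and a match of letters describes the sequence and is not a binding site.

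The relatives and partners of each member were read as lists, each given without the member. Over all 13309 measured genes 21% were called lower and 7.51% higher, and every list count below stands beside these shares, with no test. Of 8 measured genes of the cerebellin list, 6 were called lower in cisplatin and none higher, with a median log2 ratio of -0.67 against -0.16 over all measured genes. Among the neurexins that cerebellins bind, Nrxn3 was at 0.632 CPM in cisplatin and 2.34 CPM in vehicle, and Nrxn2 at 32.5 and 57.2 CPM. Under trimmed-mean (TMM) or median-of-ratios scaling 5 of the 8 were called lower. Over all 13309 measured genes these scalings gave 1949 and 1817 lower and 1393 and 1497 higher.

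Of 14 measured genes of the neuregulin and ErbB list, 3 were lower and 2 higher, with a median of -0.33. Of the receptors of Nrg2, Erbb4 had 0 UMIs in cisplatin and 1 in vehicle. Erbb3 was measured, at 10.3 CPM (278 UMIs) in cisplatin and 15.3 CPM (490 UMIs) in vehicle. Their common partner Erbb2 had 0 UMIs in both. Lrig1, which dampens ErbB signals, was at 10.5 and 21.5 CPM, and Errfi1, an inhibitor of the EGF receptor, was higher at 102 CPM in cisplatin and 57.0 CPM in vehicle. The EGF receptor ligand Areg was at 13.3 and 8.04 CPM, and Btc, another such ligand, at 1.75 and 3.22 CPM. Under TMM or median-of-ratios scaling 2 genes were lower and 3 higher, since Egfr, at 27.2 CPM in cisplatin and 42.1 CPM in vehicle, was no longer called lower and Hbegf, at 32.8 and 24.0 CPM, was called higher.

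The prosaposin receptor list had 5 measured genes, 1 lower and 1 higher, with a median of 0.22. Psap, the gene of prosaposin, was at 688 CPM in cisplatin and 592 CPM in vehicle, within the 1.5-fold limit, and Gpr37, the nearest relative of Gpr37l1, had 0 and 1 UMIs. Ptch1, the hedgehog receptor, was at 17.9 and 34.2 CPM, and the inhibitory G protein gene Gnai1 at 3.34 and 0.563 CPM. The receptor Gpr37l1 and its proposed ligand were thus both detected in each library.

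Of 6 measured genes of the phospholipase A2 and eicosanoid list, 2 were lower and none higher, with a median of -0.33. They were Pla2g2c, at 0.706 CPM in cisplatin and 2.72 CPM in vehicle, and Pla2g3, at 4.79 and 8.60 CPM. Pla2g2c lies 4.40 kb from Pla2g2f in the same group of lipase genes. Pla2g2d, 18.1 kb away, had 28 UMIs in cisplatin and 3 in vehicle, below the floor of 50. The secreted lipase receptor gene Pla2r1 had 0 UMIs in both libraries.

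In the Schlafen list no gene other than Slfn9 reached 50 UMIs. The closest was Slfn8, 10.3 kb from Slfn9, with 7 UMIs in cisplatin and 26 in vehicle. The neighbours Slfn5, Slfn2 and Slfn1 had 0 to 2 UMIs in either library.

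Of 8 measured genes of the von Willebrand factor list, 3 were lower and 1 higher, with a median of -0.43. F8, the coagulation factor that circulates bound to von Willebrand factor, was at 1.67 CPM in cisplatin and 4.85 CPM in vehicle. Stxbp5, which modulates secretion of von Willebrand factor from endothelial cells, was at 12.8 and 22.4 CPM, and Gp1bb, part of the platelet receptor for it, at 2.42 and 4.44 CPM. The integrin gene Itga2b was higher at 7.02 CPM in cisplatin and 1.75 CPM in vehicle, and Adamts13, the protease that cuts von Willebrand factor, was at 0.966 and 1.44 CPM.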

How the data were processed

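The deposited values are whole-number UMI counts per gene and barcode for 2 libraries, with no normalization, per the file headers. The submitters' processing notes name Cell Ranger 2.0.2 and mm10, with no role given. Barcodes with under 500 genes or over 10% mitochondrial UMIs were removed, 36 in cisplatin and 54 in vehicle. No doublet caller was run and no doublet was removed; leaving out the 5% of barcodes with most UMIs was an alternative. The libraries shared 23 barcode sequences, 0.541% of cisplatin and 0.617% of vehicle barcodes. Barcodes with 3 or more markers of another cell type, and clusters with 2 or more such markers among 10 leading genes, were set aside. The remaining cells are called sorted cells, since cluster 2 had Sftpc and cluster 4 had Dcn among their leading genes. The rule on leading genes was chosen after seeing the data.

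Clustering without integration took log counts at 10000 per cell, 2000 variable genes, 30 components, 15 neighbours and Leiden resolution 0.5 (scanpy 1.11.5, igraph 0.11.9, Python 3.11.15). Members, the 10 replication and 10 mitotic genes, mitochondrial and ribosomal protein genes, Xist, Tsix and Y-linked genes were left out. Other cell cycle genes were not, and clusters partly followed the cycle. In cluster 0 of cisplatin 99.1% of thinned cells were mitotic, and in cluster 10 of vehicle 99.8%. Intervals are exact 95%, Poisson for levels, Clopper-Pearson for shares. Thinning to 3000 UMIs left out 356 cisplatin and 143 vehicle cells. TMM factors from edgeR 4.0.16 and median-of-ratios factors from DESeq2 1.42.0, both in R 4.3.3, gave alternative scalings. The steps were tested on simulated data. Positions come from GENCODE M21 (GRCm38), which held 28339 of 28692 gene identifiers.

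Named genes were the members, up to 4 genes past 1.5-fold of each list, 3 correlates per member and list genes within 200 kb. Egfr, Hbegf, Erbb2, Erbb3, Erbb4, Psap, Gpr37, Pla2r1 and Adamts13 were named after their values were seen. Some genes that the rule takes are not reported here. The members and lists were chosen with earlier results of these data known.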

Additional observations from a re-analysis of the deposited data

How the results depend on the processing

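Of the 2 libraries each group has 1, so no replicate could be left out and the limits are counting error and depth. All 6 members remained at least 1.5-fold lower in cisplatin under each of 10 alternatives. Their log2 ratios lay between -2.05 and -1.42 for Cbln4, -1.91 and -1.49 for Nrg2, -1.98 and -1.58 for Gpr37l1, -1.86 and -1.65 for Pla2g2f, -2.09 and -1.66 for Slfn9, and -1.36 and -0.97 for Vwf. No value reversed. TMM scaling raised the median log2 ratio of all genes by 0.12 and median-of-ratios scaling by 0.14. With them 1949 and 1817 genes were lower and 1393 and 1497 higher, so lower genes were 58.3% and 54.8% of those called, against 73.7% with CPM. By construction, a 2-fold limit gave 873 genes lower, and a floor of 1 UMI gave 5190, against 2800. The ratios of Cbln4, Gpr37l1, Slfn9 and Vwf moved most when only clusters 1, 3 and 4 were used, an alternative added after seeing the data, as were those without cluster 9 and by replication gene range.

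The shares of cells follow the depth: at 5000 UMIs per cell, Slfn9 was found in 7.75% of cisplatin and 20.8% of vehicle cells. Of 96 ratios of a state over other cells under other limits for S and mitotic cells, 7 left the interval of the reported value, 5 of them with mitotic cells taken from 1 UMI. Pla2g2f in mitotic over other cells was then 0.796 in cisplatin and 0.755 in vehicle, and Vwf 0.644 and 0.708. Pla2g2f in S over other cells of cisplatin was 0.888 with S cells taken from 4 UMIs, against 1.12. Slfn9 in mitotic over other cells of cisplatin was 15.1 with S cells taken from 2 UMIs and 6.30 from 4, against 9.48. At other clustering resolutions, 6 of 24 highest cluster levels moved beyond their interval. No paired analysis was possible because each group has 1 library.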

Other observations

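Slfn9 was also read in the small clusters that the comparisons above do not use. In cluster 8, led by the interferon-induced genes Ifit3, Isg15 and Rsad2, it was at 52.5 CPM (32.9 to 79.4) in 60 cisplatin cells and 92.2 CPM (52.7 to 150) in 20 vehicle cells. In cluster 9, led by BC018473, Cxcl10 and P2rx7, it was at 50.1 CPM (33.3 to 72.5) in 62 cisplatin cells and 670 CPM (575 to 776) in 17 vehicle cells, of which 94.1% were in the mitotic state. The other members were at or below their library level in cluster 9, with Vwf at 30.4 CPM in cisplatin and 212 CPM in vehicle and Pla2g2f at 10.7 and 26.5 CPM. Pla2g2f in cluster 8 was at 45.3 CPM in cisplatin and 300 CPM in vehicle.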
